A study of Homo sapiens with 6 samples.

Results

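CSC-rich cells treated with PNAs-A15 were compared with untreated CSC-rich cells, using 2 of the 6 arrays of the series. NCI-H460, the source of all samples, is an established line of human large cell lung carcinoma, and the CSC-rich population (rich in cancer stem cells, by its label) was propagated from it as spheroids. The treated array, CSC-PNA, holds RNA of this population after 6 h with the agent, and the untreated array, CSC-ctr, holds RNA of the same population without it. Both come from one cell line, and both were grown without the serum that the parental culture received. The sources used here explain neither the code name PNAs-A15 nor its dose. For CSC-PNA the label shortens the agent's name, and the shortened name was taken as the same agent. A second pair, scramble-treated parental cells (WT-SC) and untreated parental cells (WT-ctr), served as the level of change between arrays of near-identical samples. The remaining arrays, scramble-treated CSC-rich cells (CSC-SC) and PNAs-A15-treated parental cells (WT-PNA), are given only beside single genes. Each of the 6 groups had 1 array and no replicate, so no difference below has a test, a standard deviation or a p-value, and "higher" and "lower" describe these arrays only. RNA from 0.55 ug per sample was turned into biotinylated cRNA for the Illumina HumanHT-12 v4 BeadChip, for which 47323 probes were deposited. A probe was kept where its detection p, its rank among the array's negative controls, was under 0.05 on CSC-PNA or CSC-ctr. That kept 21311 of the 47323 probes, and 15798 of the kept probes had a gene symbol and stood for 11988 genes.

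A cell that meets a foreign agent can respond within hours through a few well-known transcript programmes. The heat shock factor HSF1 switches on chaperone genes when proteins unfold, the SREBP factors raise sterol and fatty acid enzymes when membranes run short of cholesterol, and interferon-stimulated genes report foreign nucleic acid. Cells grown as spheroids are widely used to enrich for stem-like tumour cells, which are recognised by markers such as CD44, PROM1 (CD133), SOX2 and the ALDH enzymes. CD36, FABP4 and PLIN1 belong to the uptake, transport and storage of fatty acids.

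The CSC-PNA and CSC-ctr arrays were the most alike of all 15 pairs in the series. Across 24197 probes detected somewhere, their log2 levels correlated at a Pearson r of 0.992, beside 0.990 for WT-SC and WT-ctr. These correlations are across probes within single arrays and carry no replicate. The share of probes detected was 41.2% on CSC-PNA and 42.7% on CSC-ctr, and 42.8% on WT-SC and 42.5% on WT-ctr. The CSC-SC array, at 38.5%, and the WT-PNA array, at 36.5%, were the poorest, and WT-PNA correlated with the CSC-rich arrays at only 0.863 to 0.877. Of the kept probes, 18377 were detected on both arrays, 1099 on CSC-PNA alone and 1835 on CSC-ctr alone.

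The stem cell markers CD44, ALDH1A1 and SOX2 were detected in treated and untreated CSC-rich cells. CD44, a hyaluronan receptor, had signals of 7462 on CSC-PNA and 7459 on CSC-ctr, and WT-ctr had 8014. ALDH1A1, an aldehyde dehydrogenase, read 829 on CSC-PNA and 945 on CSC-ctr, and 1402 on WT-ctr. SOX2, a pluripotency factor, read 345 on CSC-PNA and 427 on CSC-ctr, and 528 on WT-ctr. The brightest-probe signals on the untreated CSC-rich array were thus no higher than on the untreated parental array for these 3 genes. The log2 difference CSC-PNA minus CSC-ctr of a second probe was 0.16 for ALDH1A1 and 0.22 for SOX2. Their brightest probes had the opposite sign, at -0.19 and -0.42, so neither gene has a settled direction. ABCG2, a drug efflux transporter, read 177 on CSC-PNA and 195 on CSC-ctr. None of the 6 arrays detected PROM1, NANOG or POU5F1. Of the 26 stem cell genes on the list, 17 were kept, their log2 differences CSC-PNA minus CSC-ctr ran from -0.42 (SOX2) to 0.55 (NES, an intermediate filament), and 0 were 1.5-fold apart. Among epithelial markers KRT8 and KRT19 were detected, whereas probes for EPCAM, KRT7, KRT18 and CDH1 were not detected on either array. Of the immune markers 5 of 18 were kept, with a summed signal of 7426 on CSC-PNA and 5329 on CSC-ctr. Most of it came from CD68, a lysosomal glycoprotein that carcinoma cells can also express, while PTPRC and the CD3 genes were not detected. Fibroblast and endothelial markers had 5 of 15 kept, with a summed signal of 3632 on CSC-PNA and 4116 on CSC-ctr. The type I collagen genes, PECAM1, VWF and CDH5 were not detected. Of the lung airway and alveolar markers, only HOPX was kept.

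Few genes lay far apart between treated and untreated CSC-rich cells. After background correction and quantile normalization, 36 of 11988 genes (0.3%) were at least 2-fold higher on CSC-PNA and 34 (0.284%) at least 2-fold lower, 0.584% in all. In the parental scramble pair 67 of 12014 genes (0.558%) were higher and 20 (0.166%) lower on WT-SC, 0.724% in all. The CSC-rich counts moved with the handling of dim signals, being 1 higher and 4 lower on the deposited signals as they stand, and 121 higher and 134 lower with no offset added. At 1.5-fold the counts were 374 higher (3.12%) and 406 lower (3.39%) on CSC-PNA, 6.51% in all, and 527 higher (4.39%) and 462 lower (3.85%) on WT-SC, 8.23% in all. The number of genes apart after PNAs-A15 was therefore no larger than between scramble-treated and untreated parental cells. The median difference over all genes was -0.02 in the CSC-rich pair and -0.03 in the parental pair. Its spread across genes (SD, not a replicate error) was 0.32 in the CSC-rich pair and 0.33 in the parental pair. Within 1.5-fold lay 93.5% of genes in the CSC-rich pair and 91.8% in the parental pair.

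**Figure D1:**
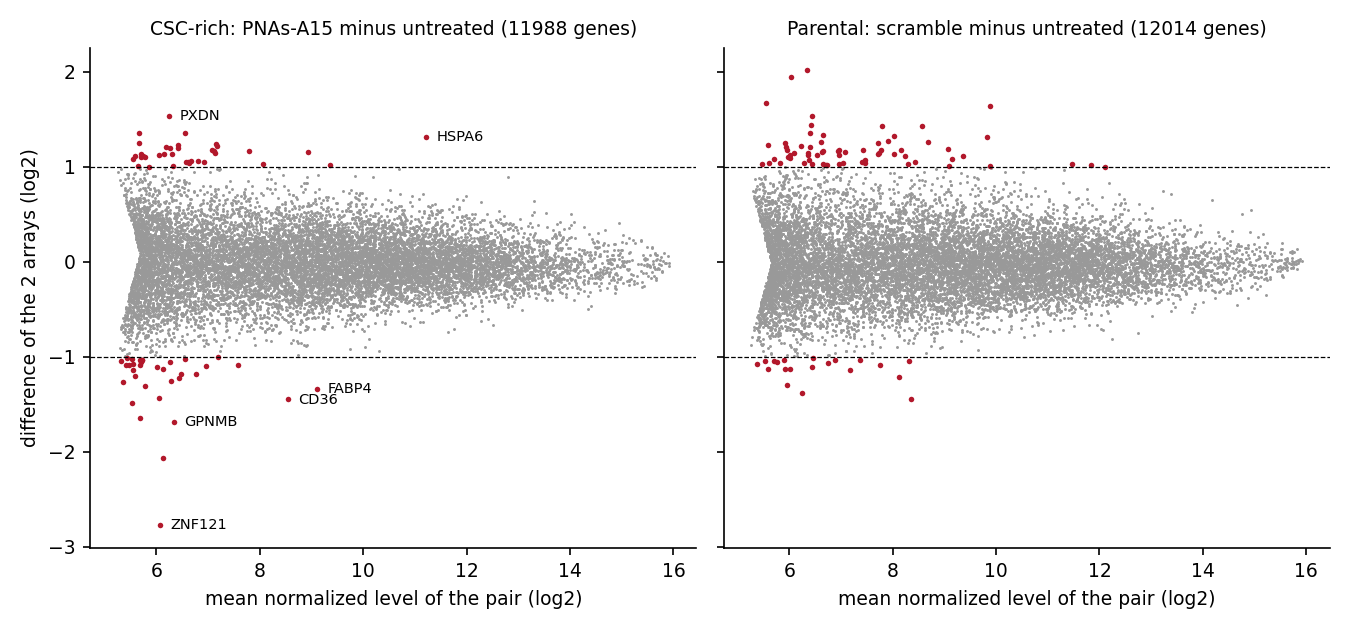
Log2 difference of the 2 arrays of a pair (vertical) against the mean normalized log2 level (horizontal), 1 point a gene, for PNAs-A15 minus untreated CSC-rich cells (left) and scramble minus untreated parental cells (right). Red points lie at least 2-fold apart (dashed lines); they gather at low levels in both panels, and HSPA6 is the highest-level gene among those on the left.

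The genes furthest apart were mostly dim. With genes split by mean level into 4 equal bins, 54 were 2-fold apart in the dimmest bin of the CSC-rich pair, against 13, 2 and 1 in the next bins up to the brightest. The parental pair had 46, 31, 7 and 3. The 99th percentile of the absolute log2 difference was 1.11, 0.87, 0.68 and 0.56 from the dimmest to the brightest bin in the CSC-rich pair, and 1.08, 1.02, 0.81 and 0.62 in the parental pair. Of the 36 higher genes, 22 were detected on both arrays and 14 on CSC-PNA alone. Of the 34 lower genes, 10 were detected on both arrays and 24 on CSC-ctr alone. Among the brighter 5994 genes, 2 were 2-fold higher and 1 was 2-fold lower on CSC-PNA, against 10 and 0 of 6007 on WT-SC.

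ZNF121, a zinc finger protein gene, had the largest difference of all 11988 genes. Its probe read 93.5 on CSC-PNA and 311 on CSC-ctr, with 311 also on CSC-SC. Both values of the scramble-treated and untreated cells were detected, and the value of the treated cells was not. A probe not detected on an array has only an upper bound there, so its fold is given as at least the brighter level over the lowest detected level of the dim array, or over the dim probe's own level if that is higher. The bound was taken on the background-corrected, normalized levels and again on the deposited signals, which are not corrected here and give smaller ratios. The deposited bound is the lower of the pair for each gene below and is given second. ZNF121 was at least 3.32-fold lower on CSC-PNA on the corrected scale and at least 1.95-fold lower on deposited signals. Over the 12 genes named for such a bound, those on deposited signals ran from 1.25-fold to 1.95-fold. The parental arrays read 88.0 on WT-PNA, again not detected, 471 on WT-SC and 584 on WT-ctr. ZNF121 was thus undetected on both PNAs-A15 arrays and detected on the 4 others. It rested on 1 probe, and whether that probe reads all transcripts of the gene was not tested. In RNA from a whole culture, here and below, fewer cells that express a gene and less RNA per cell cannot be told apart.

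In total 7 probes were undetected on both PNAs-A15 arrays and had a detection p under 0.01 on each of the 4 other arrays, and 4 of them had a gene name. Beside ZNF121 these were GCLC, the catalytic subunit of the enzyme that limits glutathione synthesis, COCH, the secreted protein cochlin, and WDR33, a subunit of the factor that recognises the polyadenylation signal. GCLC read 140 on CSC-PNA and 203 on CSC-ctr, lower by at least 1.61-fold corrected and 1.27-fold on deposited signals. COCH read 154 on CSC-PNA and 210 on CSC-ctr, lower by at least 1.73-fold corrected and 1.32-fold deposited. WDR33 read 154 on CSC-PNA and 189 on CSC-ctr, lower by at least 1.40-fold corrected and 1.18-fold deposited. These signals lay close to the detection limit, and GCLC and COCH had 2 kept probes each and WDR33 had 6, so a single undetected probe does not stand for the gene. The opposite pattern, detection on both PNAs-A15 arrays alone, was found for 1 probe without a gene name. No array of untreated or scramble-treated cells was repeated, so how often chance array error gives such a pattern was not tested. WT-PNA detected the smallest share of probes of the series (36.5%) and also lost genes that were not low on CSC-PNA. CNOT7 was lower on WT-PNA than on WT-ctr by at least 55.0-fold corrected and 27.9-fold deposited, and lay at 0.02 in the CSC-rich pair. The share of all probes that WT-PNA alone failed to detect was not counted.

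CD36, FABP4 and PLIN1, genes of fatty acid handling, were among those furthest below the untreated array, and CSC-SC was also below it. CD36, the membrane receptor that takes up fatty acids and oxidised lipoproteins, read 367 on CSC-PNA, 400 on CSC-SC and 795 on CSC-ctr. Its log2 difference CSC-PNA minus CSC-ctr was -1.45, a 2.73-fold lower level, and a second probe gave -1.40. FABP4, a cytosolic fatty acid carrier of adipocytes and macrophages, read 507 on CSC-PNA, 446 on CSC-SC and 1085 on CSC-ctr, a log2 difference of -1.34. PLIN1, which coats lipid droplets, read 156 on CSC-PNA, 155 on CSC-SC and 246 on CSC-ctr, and was not detected on CSC-PNA, where it was lower by at least 2.28-fold corrected and 1.54-fold deposited. In all 3 genes the untreated array stood alone above the other CSC-rich arrays. The differences CSC-SC minus CSC-ctr, which share the untreated array with the first, were -0.87 for CD36, -1.18 for FABP4 and -1.03 for PLIN1. In parental cells CD36 read 982 on WT-PNA, 1428 on WT-SC and 1599 on WT-ctr. FABP4 read 253 on WT-PNA, 189 on WT-SC and 180 on WT-ctr, so its order there was the opposite.

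Other genes of lipid uptake and storage did not share this pattern. A list of 24 such genes was written after these values were seen, so its counts describe and support nothing. Of its 18 kept genes, CD36, FABP4 and PLIN1 were 1.5-fold lower and MGLL, a lipase that releases fatty acids from monoacylglycerols, was higher at 0.96. The median was -0.05. PPARG, the nuclear receptor that drives CD36, FABP4 and PLIN1 in adipocytes, lay at -0.12, with signals of 1258 on CSC-PNA and 1399 on CSC-ctr. PLIN2, the droplet coat of non-adipose cells, lay at -0.32, FABP5 at -0.06 and CPT1A, which admits fatty acids to mitochondria, at 0.02.

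Several other genes were lower on CSC-PNA than on both other CSC-rich arrays. GPNMB, a transmembrane glycoprotein of lysosomes and melanosomes, read 148 on CSC-PNA, 232 on CSC-SC and 274 on CSC-ctr, lower than untreated by at least 2.74-fold corrected and 1.72-fold deposited. Its second probe read 153 on CSC-PNA, below the detection limit, and gave a fitted -0.74. HPGD, the dehydrogenase that breaks down prostaglandins, read 164 on CSC-PNA, 265 on CSC-SC and 259 on CSC-ctr, a log2 difference of -1.22. COL24A1, a fibrillar collagen, read 185 on CSC-PNA, 273 on CSC-SC and 299 on CSC-ctr, a difference of -1.18. The scramble and untreated values of these 3 genes lay nearer to each other than to the treated value. TAOK1, a kinase of the stress-activated MAP kinase pathway, was brighter than these. It read 1084 on CSC-PNA, 1939 on CSC-SC and 2011.4 on CSC-ctr, and its difference was -0.94. On the parental arrays TAOK1 read 214 on WT-PNA, 1976 on WT-SC and 2010 on WT-ctr, so both PNAs-A15 arrays were low and the 4 others lay between 1939 and 2011.4. A low value on WT-PNA was not particular to TAOK1. MRPS35 and RAB5A were undetected there, lower than on WT-ctr by at least 35.5-fold and 18.7-fold corrected and 18.3-fold and 10.2-fold deposited.

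The rest of the 12 lowest genes detected on both arrays were REEP3 (-1.18), ANKRD18A (-1.09), HAL (-1.08), ABCA11P (-1.06), SHISA3 (-1.01), SUDS3 (-0.99) and RAB31 (-0.92). REEP3 and ABCA11P read only 168 and 160 on CSC-PNA, near the detection limit. Between processing settings REEP3 ranged from -1.45 to -0.64 and ABCA11P from -1.34 to -0.55. REEP3 keeps endoplasmic reticulum off chromosomes in mitosis, HAL breaks down histidine, SUDS3 is a subunit of a histone deacetylase complex and RAB31 is a small GTPase of vesicle traffic. SHISA3 at 2.01-fold lower lay just inside the 2-fold threshold and SUDS3 at 1.99-fold lower just outside it. A second probe of HAL read only -0.25. Among genes detected on CSC-ctr alone, PI3, an inhibitor of elastase, read 140 on CSC-PNA, 130 on CSC-SC and 232 on CSC-ctr, lower on CSC-PNA by at least 2.07-fold corrected and 1.46-fold deposited. F3, the tissue factor that starts coagulation, was lower by at least 1.96-fold corrected and 1.41-fold deposited by its brighter probe, but its second probe, detected on both arrays, gave 0.14, so F3 has no settled direction. A probe placed in the miRNA gene MIR1282, which does not measure a mature miRNA, was lower by at least 2.71-fold corrected and 1.71-fold deposited. That probe was also undetected on CSC-SC, lower than on CSC-ctr by at least 2.42-fold corrected and 1.75-fold deposited. It was undetected on WT-SC too, lower than on WT-ctr by at least 1.94-fold corrected and 1.31-fold deposited.

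HSPA6 had the brightest probe of the genes at least 2-fold apart. HSPA6 encodes an inducible Hsp70 chaperone that human cells hold at low levels until proteins unfold. Its signal was 3843 on CSC-PNA, 1900 on CSC-SC and 1746 on CSC-ctr, a log2 difference of 1.31 or 2.48-fold against untreated and 0.97 against scramble. A second, dim HSPA6 probe lay at 0.55. HSPA7, a pseudogene nearly identical to HSPA6, read 895 on CSC-PNA, 518 on CSC-SC and 487 on CSC-ctr, a difference of 1.16. The treated array was the highest for both, and since the genes share most of their sequence their signals cannot be told apart. In parental cells HSPA6 was not detected on WT-PNA (131) and read 312 on WT-SC and 274 on WT-ctr. HSPA7 there read 201 on WT-PNA, 215 on WT-SC and 201 on WT-ctr.

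**Figure D2:**
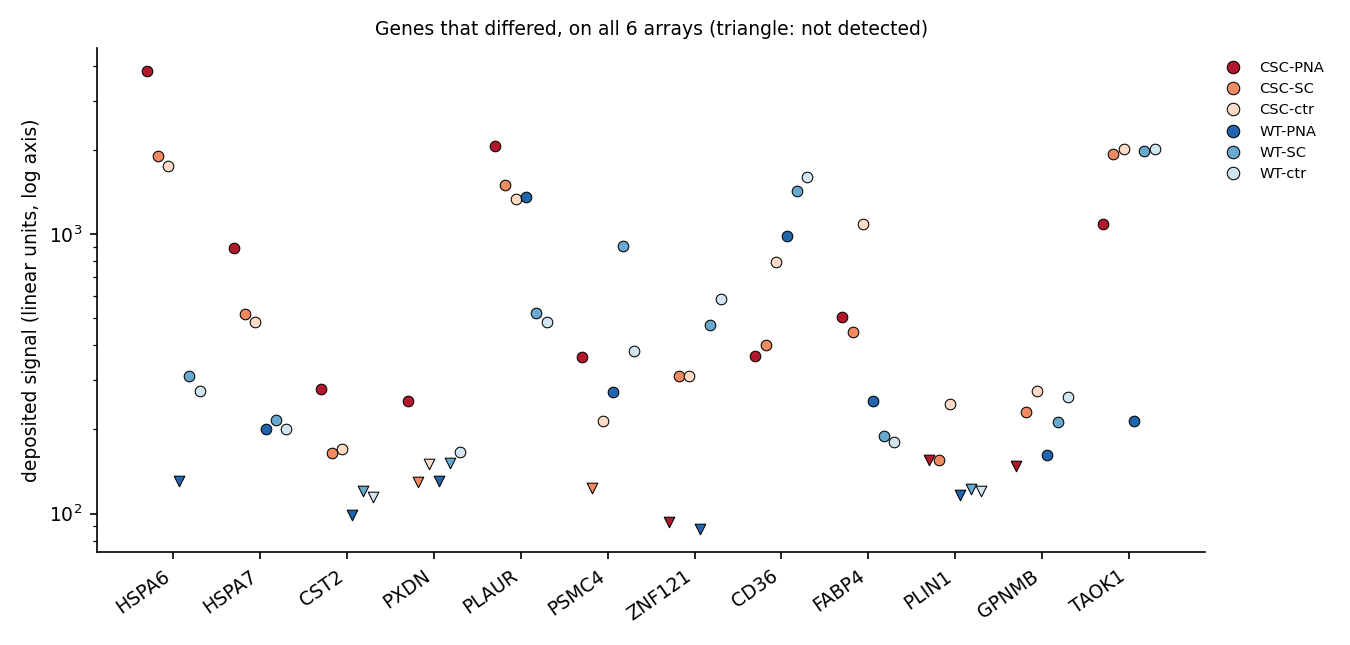
Deposited signal (linear units on a log axis) of 12 genes on the 6 arrays, 1 point an array, with triangles where the probe was not detected. The CSC-PNA point lies above both other CSC-rich points for HSPA6, HSPA7, CST2, PXDN, PLAUR and PSMC4, and below both for ZNF121, GPNMB and TAOK1; for CD36, FABP4 and PLIN1 the CSC-ctr point is the one that stands apart.

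By the brightest probe of each gene, HSPA6 stood apart from the other heat shock genes. Of 21 kept heat shock genes, HSPA6 and the small heat shock protein CRYAB (0.90, with signals of 1779 on CSC-PNA, 1158 on CSC-SC and 1059 on CSC-ctr) were 1.5-fold higher and 0 were 1.5-fold lower. The list median was -0.02 in the CSC-rich pair, with its sign changing between processing settings, and -0.25 in the parental scramble pair. HSPA1A, the main stress-inducible Hsp70, lay at 0.20, its neighbour HSPA1B at -0.03, DNAJB1, their co-chaperone, at 0.30, HSPH1 at -0.27 and HSP90AA1 at -0.04. HSPA1A signals were 13542 on CSC-PNA and 11930.4 on CSC-ctr with 12311 on CSC-SC between them. Second probes, which the counts leave out, lay further from 0 for HSPE1 (1.18, brightest probe 0.07) and DNAJB4 (-0.63, brightest probe -0.33).

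HSF1 binds short repeats that hold GAA in alternating orientation. The RefSeq start regions of HSPA6, which was higher, and of HSPA8, the constitutive Hsp70, which lay at -0.08, are shown because both hold a repeat of this kind. The windows run from 250 bases before to 50 after the start of the gene in GRCh38.p14, 5′ to 3′ on the gene's strand, and capitals mark TTCNNGAANNTTC or its reverse complement GAANNTTCNNGAA.
HSPA6, chr1:161524290-161524589, plus strand: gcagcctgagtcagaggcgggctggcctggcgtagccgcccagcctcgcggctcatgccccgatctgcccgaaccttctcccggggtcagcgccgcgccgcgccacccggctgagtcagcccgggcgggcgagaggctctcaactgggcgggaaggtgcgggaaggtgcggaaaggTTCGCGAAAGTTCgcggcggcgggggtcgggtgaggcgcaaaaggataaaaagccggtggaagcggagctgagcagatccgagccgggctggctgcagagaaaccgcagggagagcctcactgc
HSPA8, chr11:123062087-123062386, minus strand: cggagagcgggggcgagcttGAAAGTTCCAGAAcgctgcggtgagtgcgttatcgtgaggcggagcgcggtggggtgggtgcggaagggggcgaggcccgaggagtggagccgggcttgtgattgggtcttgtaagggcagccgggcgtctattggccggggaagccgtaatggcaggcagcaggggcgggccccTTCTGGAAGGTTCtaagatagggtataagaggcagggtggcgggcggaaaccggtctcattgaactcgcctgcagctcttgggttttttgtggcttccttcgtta
The match of HSPA6 begins 74 bases before the start, and those of HSPA8 begin 230 and 55 bases before it. In all, 172 of 35116 RefSeq start regions of this length (0.490%) held the motif on either strand. Of 20 kept heat shock genes with an entry, 7 held it. Leaving HSPA6 aside, the other 6 had log2 differences from -0.21 to 0.24. The windows of HSPA1A, HSPA1B, DNAJB1 and HSPH1 held no match to this strict pattern. Whether HSF1 acted on any of these genes was not tested. A match describes the letters of the window and is not a measured site.

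CST2, a secreted cystatin that inhibits cysteine proteases, had the largest positive difference among genes detected on both arrays, with 280 on CSC-PNA, 164 on CSC-SC and 171 on CSC-ctr (1.35, or 2.55-fold). PXDN, a peroxidase that crosslinks collagen IV, was detected on CSC-PNA alone among the CSC-rich arrays, with 253 on CSC-PNA, 130 on CSC-SC and 151 on CSC-ctr, higher than untreated by at least 2.58-fold corrected and 1.59-fold deposited. Both genes were undetected on WT-PNA and on WT-SC. PLAUR, the receptor of the urokinase plasminogen activator, had 3 kept probes at 0.75, 1.15 and 1.19. Its brightest probe read 2065 on CSC-PNA, 1496 on CSC-SC and 1335 on CSC-ctr. It also read 1360 on WT-PNA, 522 on WT-SC and 483 on WT-ctr, so the PNAs-A15 array was the highest of each population. PLAT, the tissue plasminogen activator, lay at 0.55, PLAU, its urokinase relative and the ligand of PLAUR, at 0.30 and the matrix protease MMP1 at 0.46. The 16 kept matrix genes had a median of 0.05, with PLAUR alone 1.5-fold apart, and the 18 kept genes of the secreted and surface list had a median of 0.06 with 1 gene 1.5-fold higher and 1 lower.

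Other genes in the higher group were also higher in the parental scramble pair, in which no PNAs-A15 was present. PSMC4, an ATPase of the proteasome cap, read 362 on CSC-PNA and 215 on CSC-ctr (1.21), and 908 on WT-SC and 383 on WT-ctr (1.43). In the CSC-rich pair NPDC1 lay at 1.17, HEATR3, an adaptor of ribosomal protein import, at 1.16, FKBP10, a collagen chaperone, at 1.20 and RBM38, an RNA-binding target of p53, at 1.14. In the parental pair NPDC1 lay at 1.18, HEATR3 at 0.93 and RBM38 at 0.92, and FKBP10, not detected on WT-ctr, was higher on WT-SC by at least 1.87-fold corrected and 1.46-fold deposited. BAIAP2, an adaptor of actin remodelling, lay at 1.24 in the CSC-rich pair and 0.76 in the parental pair. IRF2BP1, a corepressor, lay at 1.20 in the CSC-rich pair and 0.68 in the parental pair, and the antisense RNA PGM5-AS1 at 1.17 in the CSC-rich pair and 0.72 in the parental pair. By contrast, the parental differences were 0.10 for HSPA6 and -0.01 for HSPA7. CST2 was detected on neither array of the parental pair and PXDN not on WT-SC, so how far these genes moved there was not measured. On the scramble array of CSC-rich cells PSMC4 (124) and NPDC1 (139, with 212 on CSC-ctr) were not detected. BAIAP2 read 164 there, below its CSC-ctr signal of 213.

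Genes detected on CSC-PNA but not on CSC-ctr included SHOX2, a homeobox factor, LGI2, a secreted leucine-rich repeat protein, ERF, a repressor of the ETS family, and ZNF37A, a zinc finger gene. On the corrected scale they were higher by at least 2.20-fold for SHOX2, 2.09-fold for LGI2, 1.72-fold for ERF and 1.68-fold for ZNF37A. On deposited signals these bounds were 1.45-fold for SHOX2, 1.41-fold for LGI2, 1.26-fold for ERF and 1.25-fold for ZNF37A. SHOX2 and LGI2 were also detected on CSC-SC. There they were higher than on CSC-ctr by at least 1.77-fold and 1.68-fold corrected, and 1.12-fold and 1.10-fold deposited. ERF and ZNF37A were detected on neither CSC-SC nor CSC-ctr. A second SHOX2 probe lay at 0.05. A probe placed in the miRNA gene MIR586, again no measure of a mature miRNA, was higher by at least 1.94-fold corrected and 1.35-fold deposited. All of these probes read between 198 and 231 on CSC-PNA, near the detection limit. GABBR2, a subunit of the GABA-B receptor that was singled out after its values were seen, lay at 0.97 with 2481 on CSC-PNA, 2555 on CSC-SC and 1400 on CSC-ctr. As with CD36 and FABP4, its untreated array was the one that stood apart from the other CSC-rich arrays.

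Genes read by several probes allow a check of the probe, though not of the treatment, because probes of a gene share the same RNA. Across 3086 genes with a second kept probe, the differences of the 2 brightest probes correlated at a Pearson r of 0.43, and at 0.57 over the 1441 genes whose second probe reached a mean log2 level of 8. The parental pair gave 0.44 over 3221 genes and 0.56 over 1490. Of 141 genes with a first probe at least 1.5-fold apart, the second had the same sign in 120 and was also 1.5-fold apart in 39. Genes with every kept probe 1.5-fold apart in 1 direction numbered 14 higher and 20 lower of 3086 in the CSC-rich pair, and 38 and 17 of 3221 in the parental pair. Probes detected on 1 array alone enter these counts with fitted values, so such a probe is no second measurement.

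**Figure D3:**
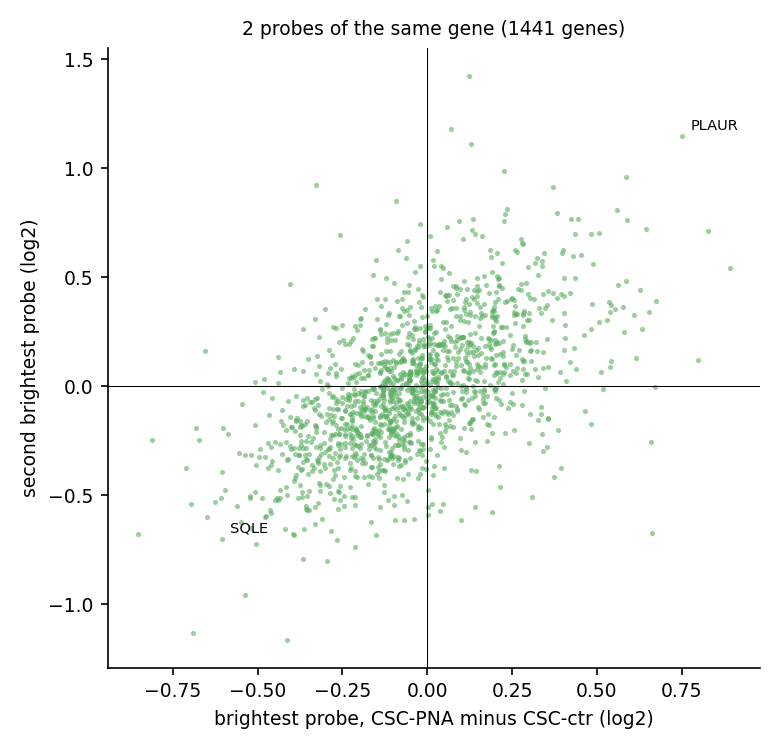
Log2 difference CSC-PNA minus CSC-ctr of the second brightest probe (vertical) against the brightest probe (horizontal) of the same gene, 1 point a gene, for the 1441 genes whose second probe had a mean log2 level of at least 8. The cloud rises from lower left to upper right (r = 0.57), with PLAUR at its upper right.

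The genes with all probes higher were NFKB2, a subunit of NF-kB (1.05 and 0.97), PLAUR, TMEM134, BCL7C, RALY, COPE, TAGLN2, TRAPPC9, HYOU1, CLN8, RPL29, MVP, ARPC4 and CAPNS1. COPE is a coat protein of Golgi vesicles (0.73), TRAPPC9 tethers vesicles (0.65), HYOU1 is a chaperone of the endoplasmic reticulum (0.65) and CLN8 exports lysosomal enzymes from it (0.63). ARPC4 (0.59) is a subunit of the complex that branches actin. In the parental pair COPE lay at 0.95 and ARPC4 at 0.84, and NFKB2, not detected on WT-ctr, was higher on WT-SC by at least 2.59-fold corrected and 1.78-fold deposited, whereas CLN8 lay at 0.04, MVP at 0.01 and PLAUR at -0.01. The genes with all probes lower included CD36, GPNMB, the squalene epoxidase SQLE (-0.61 and -0.70), the cap-binding factor EIF4E (-0.75 and -0.74), the transcription factor SP4 (-0.85 and -0.68), the growth factors FGF2 (-0.63 and -0.70) and KITLG (-0.70 and -0.61), the matrix proteoglycan LUM (-0.65 and -0.81), the depalmitoylating enzyme LYPLA1 (-0.70 and -0.85) and the splicing regulator PTBP2 (-0.65 and -0.60). On CSC-PNA the second probes of LUM and LYPLA1 read 119 and 143, and that of GPNMB read 153. These signals lay below the undetected PLIN1 signal there (156), so their values are fitted and are no measured difference. Of the higher genes, NFKB2 and RALY each had a probe detected on CSC-PNA and not on CSC-ctr. In the parental pair SQLE lay at -0.72, EIF4E at -0.24, SP4 at -0.41, FGF2 at -0.34, KITLG at -0.40, LUM at -0.31, LYPLA1 at -0.40 and PTBP2 at 0.00.

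The CSC-rich differences were partly shared with the parental scramble pair, with which they have no array in common. Across 11117 genes read by the same probe, the differences CSC-PNA minus CSC-ctr and WT-SC minus WT-ctr correlated at a Pearson r of 0.48 (Spearman rho 0.49). In 4 equal bins by mean level r was 0.31, 0.55, 0.65 and 0.65 from the dimmest to the brightest. Points are genes, which are not independent replicates, and they share the probe, the platform and the joint normalization. Of 315 genes at least 1.5-fold higher on CSC-PNA, 253 (80.3%) lay above 0 in the parental pair, against 45.3% of all genes, with 94 also 1.5-fold higher and 5 lower. Of 304 genes at least 1.5-fold lower on CSC-PNA, 77.0% lay below 0 in the parental pair, against 54.6% of all genes, with 56 also 1.5-fold lower and 9 higher. Genes higher on CSC-PNA spanned a shorter stretch of genome, with a median of 18.3 kb, than those lower, 29.7 kb, or than all genes, 28.2 kb. The parental pair had medians of 15.3 kb for genes higher on WT-SC, 44.4 kb for those lower and 28.0 kb for all genes. What gives the pairs this shared pattern was not tested.

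**Figure D4:**
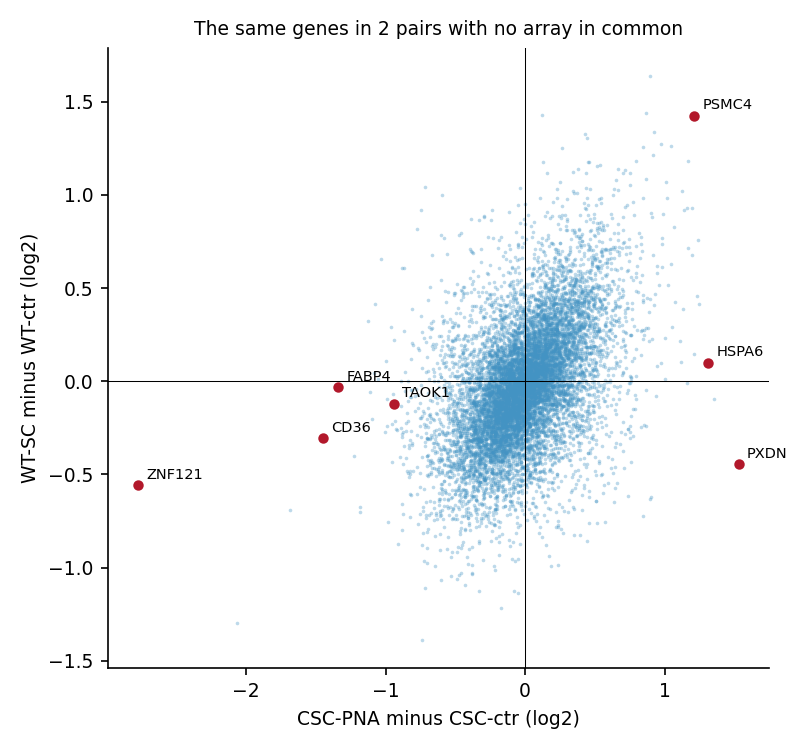
Log2 difference WT-SC minus WT-ctr (vertical) against CSC-PNA minus CSC-ctr (horizontal), 1 point a gene, for the 11117 genes read by the same probe in both pairs. The cloud is tilted upwards (r = 0.48); PSMC4 lies high in both pairs, whereas HSPA6, FABP4 and TAOK1 lie near 0 on the vertical axis.

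Pathways as a whole stayed close to 0. Of 44 gene lists, 43 had at least 3 kept genes. Their median differences in the CSC-rich pair ran from -0.30 to 0.27, and 38 of them lay within 0.2 of 0, as did 38 in the parental pair, where they ran from -0.25 to 0.10. Over all lists 863 genes were kept, of which 26 (3.01%) were 1.5-fold higher and 19 (2.20%) 1.5-fold lower, beside 3.12% and 3.39% of all genes. In 18 lists no kept gene was 1.5-fold apart, and 6 lists held a gene at least 2-fold apart. Of the 31 medians within 0.1 of 0, 13 changed sign between processing settings, as did 1 of the 12 further out, that of the epithelial markers. Fitted differences of genes detected on 1 array alone enter these counts.

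The lowest list was cholesterol biosynthesis, with a median of -0.30 over 18 kept genes. Lower by at least 1.5-fold were HMGCS1, the synthase at the head of the mevalonate pathway (-0.73), with signals of 2599 on CSC-PNA, 3475 on CSC-SC and 4343 on CSC-ctr, the demethylase CYP51A1 (-0.65), the desaturase SC5D (-0.63), the sterol carrier STARD4 (-0.61) and SQLE (-0.61), with 4492 on CSC-PNA, 6105 on CSC-SC and 7046 on CSC-ctr. The treated array was the lowest CSC-rich array for HMGCS1 and SQLE, with the scramble array between. MVK, mevalonate kinase, was not detected on CSC-ctr and was higher by at least 1.38-fold corrected and 1.13-fold deposited. SREBF2, which encodes the factor that drives these genes, lay at 0.43. In the parental scramble pair the list median was -0.08 and 5 genes were also 1.5-fold lower, with HMGCS1 at -0.82, SC5D at -0.74 and SQLE at -0.72. Fatty acid synthesis had a median of -0.27 over 14 genes, with FASN, the fatty acid synthase, at -0.50, ACSL1, which activates fatty acids, at -0.52 and 0 genes 1.5-fold apart. Its parental median was -0.16. Both medians kept their sign under every processing setting tried.

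Mitosis and G2/M genes had a median of 0.19 over 29 kept genes, against -0.10 in the parental pair. On CSC-PNA 4 were 1.5-fold higher, AURKB, the kinase of the chromosomal passenger complex (1.23), its partner BIRC5 (0.59), the kinesin KIF4A and the ubiquitin-conjugating enzyme UBE2C (0.79), and 0 were lower. In the parental pair 0 were higher and 0 lower. AURKB read 257 on CSC-PNA, 137 on CSC-SC, where it was not detected, and 167 on CSC-ctr. UBE2C read 759 on CSC-PNA, 412 on CSC-SC and 503 on CSC-ctr. The untreated parental array read 2941 for AURKB and 10244 for UBE2C, so the CSC-rich levels were low in treated and untreated cells alike. KIF4A was not detected on CSC-ctr and was higher by at least 1.41-fold corrected and 1.15-fold deposited, so its fitted value is no measured 1.5-fold difference. Other members lay closer to 0, with CCNB2 at 0.51, TOP2A at 0.32, CDK1 at 0.06, PLK1 at -0.05 and KIF23 at -0.37. Genes of DNA replication had a median of 0.05, with TK1, thymidine kinase, at 0.64 the member 1.5-fold apart, and G1 cyclins and CDK inhibitors a median of -0.05 with CDKN1A at 0.42.

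**Figure D5:**
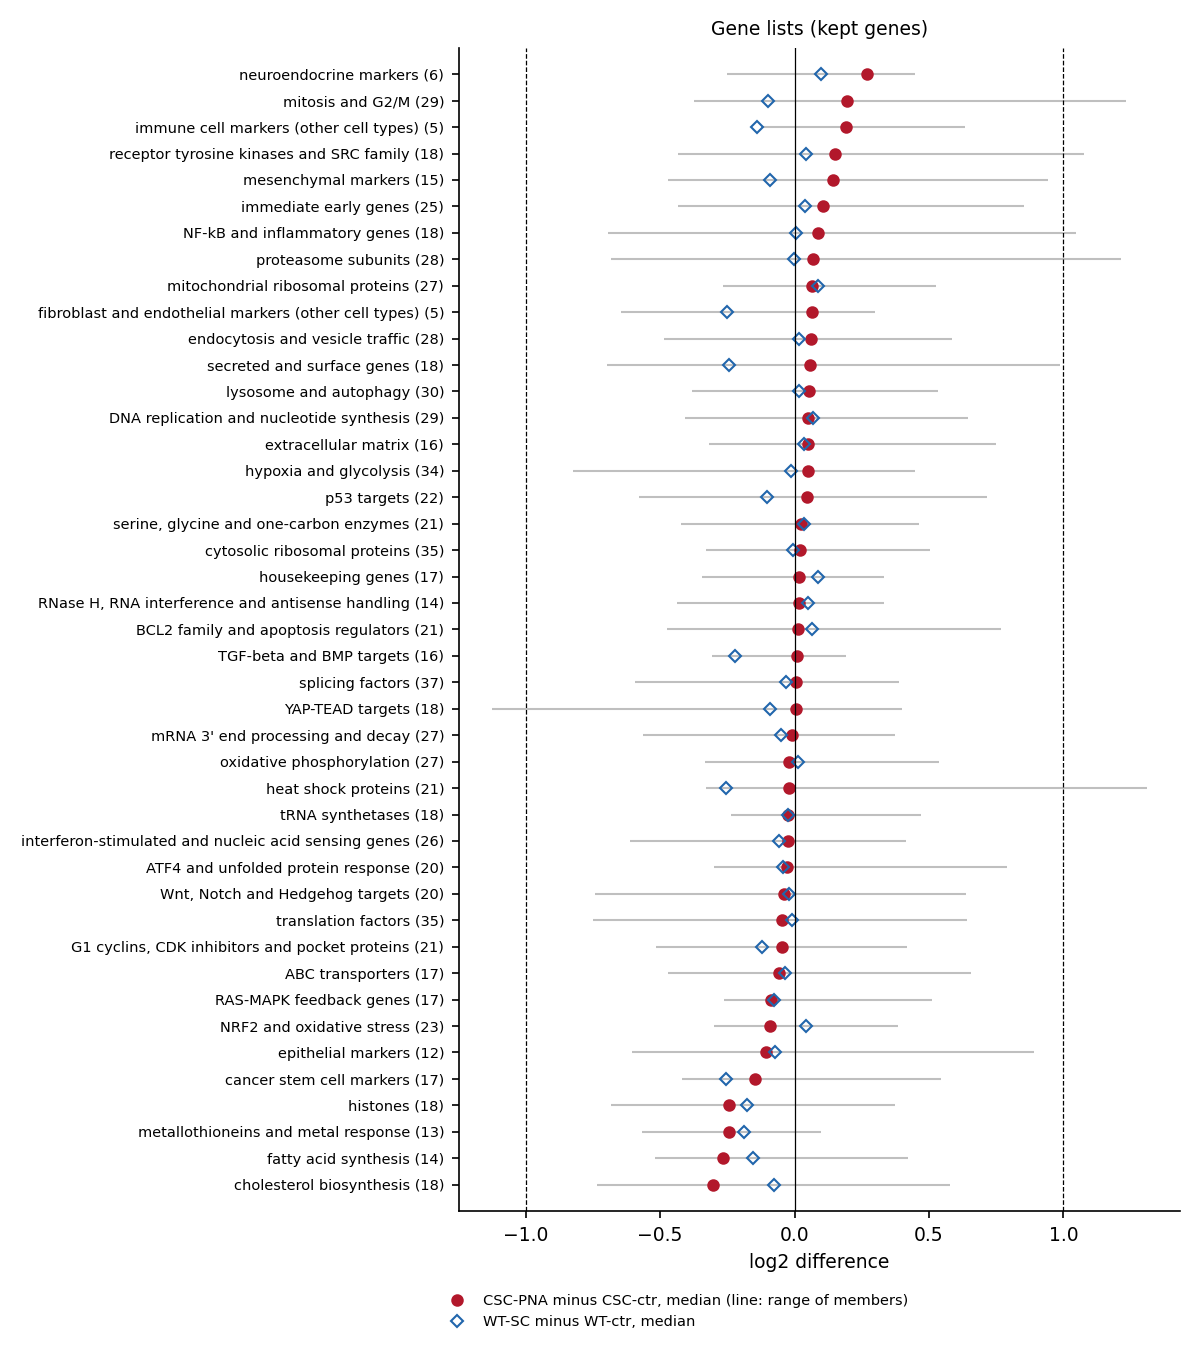
Median log2 difference of 43 gene lists (number of kept genes in parentheses) for CSC-PNA minus CSC-ctr (filled circles, with a line for the range of members) and WT-SC minus WT-ctr (open diamonds). List medians lie between -0.30 and 0.27 in the CSC-rich pair, and single members such as HSPA6, AURKB and PSMC4 lie far above the medians of their lists.

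Stress and signalling lists were flat with single members apart. Immediate early genes had a median of 0.11 over 25 kept genes, with the orphan receptor NR4A1 at a fitted 0.85, not detected on CSC-ctr, JUNB at 0.66, FOSL1 at 0.51, FOS at 0.22, EGR1 at 0.25 and JUN at 0.11. NF-kB and inflammatory genes had a median of 0.09 over 18 genes, with NFKB2 at 1.05, IL6 at -0.69 and CXCL3 at a fitted -0.59, not detected on CSC-PNA. Other direct targets in that list lay near 0, with TNFAIP3 at 0.15, NFKBIA at -0.32, CXCL8 at -0.07 and SOD2 at 0.03. Interferon-stimulated and nucleic acid sensing genes had a median of -0.02 over 26 genes. The sensor adaptor STING1 alone was counted as 1.5-fold apart, at a fitted -0.61. It was not detected on CSC-PNA and was lower by at least 1.43-fold corrected and 1.20-fold deposited, so no 1.5-fold difference was measured. IFIH1, a sensor of double-stranded RNA, lay at -0.57, IFIT1 at 0.22, ISG15 at 0.41, MX1 at 0.08 and OAS1 at 0.37. Targets of p53 had a median of 0.05 over 22 genes, with DDB2, a DNA repair factor, at 0.72 the member 1.5-fold apart, beside CDKN1A at 0.42, MDM2 at 0.13 and RRM2B at -0.50. Of 21 BCL2 family and apoptosis genes, the pro-apoptotic member BAD (0.77) was 1.5-fold higher and 0 were lower, with BCL2L1 at 0.11 and MCL1 at 0.01. BAK1, also pro-apoptotic, was not detected on CSC-ctr and was higher by at least 1.48-fold corrected and 1.17-fold deposited, so its fitted 0.70 is no measured 1.5-fold difference. In the parental pair BAK1 lay at 1.12 and BAD at 0.39. The ATF4 and unfolded protein list had a median of -0.03 over 20 genes, with DDIT3 (CHOP) at 0.79 and PDIA4 at 0.62. The hypoxia and glycolysis list lay at 0.05 over 34 genes, with the prolyl hydroxylase EGLN3 at -0.83 alone 1.5-fold apart.

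Basic cell machinery differed little between the arrays. Oxidative phosphorylation (27 genes, median -0.02), cytosolic ribosomal proteins (35 genes, 0.02), mitochondrial ribosomal proteins (27 genes, 0.07), lysosome and autophagy (30 genes, 0.05), tRNA synthetases (18 genes, -0.02) and housekeeping genes (17 genes, 0.02) each had 0 genes 1.5-fold apart. The same held for endocytosis and vesicle traffic (28 genes, 0.06), the machinery of messenger RNA ends and decay (27 genes, -0.01) and the RNase H, RNA interference and antisense genes (14 genes, 0.02). In that last list RNASEH1 lay at 0.02, AGO2 at 0.13 and DICER1 at -0.21. Splicing factors had a median of 0.01 over 37 genes with SRSF11 at -0.59, proteasome subunits 0.07 over 28 genes with PSMC4 at 1.21 and PSMA2 at -0.68, and translation factors -0.05 over 35 genes with EEF1G at 0.64 and EIF4E at -0.75. EEF1G read 12818 on CSC-PNA and 8358 on CSC-ctr, and 15635 on WT-SC and 9205 on WT-ctr, so it was higher in both pairs. NRF2 and oxidative stress genes (23 genes, -0.09) and the serine, glycine and one-carbon enzymes (21 genes, 0.02) had no member 1.5-fold apart either.

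Markers of cell identity varied more from gene to gene than as groups. Epithelial markers had a median of -0.11 over 12 kept genes (0.02 with detection on both arrays), with the keratin KRT19 at 0.89 (9804 on CSC-PNA, 2980 on CSC-SC and 5476 on CSC-ctr) and CLDN4, a tight junction protein not detected on CSC-PNA, at a fitted -0.60. Mesenchymal markers had a median of 0.14 over 15 genes, with the actin-binding TAGLN at 0.94 and the factor TWIST2 at 0.87, and VIM at 0.29. TAGLN read 567 on CSC-PNA, 471 on CSC-SC and 352 on CSC-ctr. The 6 kept neuroendocrine markers had the highest median, 0.27, with ENO2 at 0.45 and NCAM1 at 0.31 and 0 of them 1.5-fold apart, but the median was 0.04 over all their probes without the detection filter. Receptor tyrosine kinases and SRC family genes had a median of 0.15 over 18 genes, with ERBB3, detected on CSC-PNA and not on CSC-ctr, higher by at least 1.36-fold corrected and 1.13-fold deposited. EGFR lay at 0.10, MET at -0.04, ERBB2 at 0.40 and SRC at 0.43. Histone genes had a median of -0.25 over 18 genes, with H2AJ (-0.68) and H2BC21 (-0.60) 1.5-fold lower, and metallothionein and metal response genes a median of -0.25 over 13 genes, with MT1X at -0.57. Their parental medians were -0.18 for histones and -0.19 for metallothioneins. TGF-beta and BMP targets (16 genes, median 0.01), YAP-TEAD targets (18 genes, 0.00) and Wnt, Notch and Hedgehog targets (20 genes, -0.04) were near 0, with the Notch target HEY1 at -0.74 and the Wnt antagonist DKK3 at 0.64 in the last of them.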

How the data were processed

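The deposited table gives, per the file headers, a linear signal intensity (AVG_Signal) and a detection p-value for 47323 probes on each of 6 arrays, named by group. The submitters' processing notes name GenomeStudio 2011.1, and the sources used here do not say whether background was subtracted. The deposited series matrix held the same intensity values (100% equal), so they were linear, uncentred and not normalized between arrays. Its 6 column medians lay between 129.8 and 151.6.

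The signals were background-corrected with limma 3.58.1 in R 4.3.3 (normal-exponential model, with the control probes' background derived from detection p-values, and an offset of 16), quantile-normalized over the 6 arrays and log2-transformed. A probe was kept if its detection p fell under 0.05 on 1 array of the pair or on both, and the kept probe with the highest mean of the pair stood for its gene. Probes were named through the platform annotation: 30113 had 1 symbol, 8 had several and 17202 were not listed and are unnamed here. Gene identifiers of 30074 matched RefSeq for GRCh38.p14, which changed 0 symbols and gave the start regions and gene spans. The sources used here name no genome build for the arrays.

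With 1 array a group no test was possible, and the number of arrays limits the precision. Differences are CSC-PNA minus CSC-ctr, called at 1.5-fold (0.58 on the log2 scale) or 2-fold. Named genes were the 12 highest and 12 lowest detected on both arrays with the same sign under quantile and median scaling and on deposited signals, the 6 highest and 6 lowest bounds on the corrected scale, up to 15 per direction with every probe 1.5-fold apart, up to 3 per list, and 7 stem cell genes; uncharacterised symbols and Y-linked genes were left out. Further list members and GABBR2 were named after their values were seen. The members and the 44 lists were chosen with earlier results of these data known, and the lipid list after these values were seen. Alternatives were median scaling, deposited signals, normalization on 4 or 2 arrays, offsets of 0 and 50, other detection filters and the mean of a gene's probes. Scripts were tested on simulated data. A replicate could not be left out.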

Additional observations from a re-analysis of the deposited data

Results flagged for a closer look

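HSPA6, FABP4 and BAIAP2 lay in opposite directions on the PNAs-A15 arrays of the CSC-rich and the parental cells, each set against its untreated array. The log2 difference of HSPA6 was 1.31 in CSC-rich cells. In parental cells HSPA6 was not detected on WT-PNA, where it was lower than on WT-ctr by at least 2.18-fold on the corrected scale and 1.83-fold on deposited signals. The log2 difference of FABP4 was -1.34 in CSC-rich cells and 2.02 in parental cells, both on the corrected scale. Its deposited signals on WT-PNA and WT-ctr, given above, were near the detection limit and lay much closer together than 2.02. BAIAP2 lay at 1.24 in CSC-rich cells, and in parental cells it was again not detected on WT-PNA, lower by at least 2.44-fold corrected and 1.96-fold deposited. With 1 array a group the differences between the populations were not tested, and WT-PNA had the lowest share of detected probes of the series (36.5%).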

How the results depend on the processing

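The counts depended on how dim signals were treated. Genes at least 2-fold higher on CSC-PNA numbered 58 with median scaling, 57 when normalized with 4 arrays, 121 with an offset of 0, 5 with an offset of 50, 1 on deposited signals and 22 when detection was required on both arrays. Those 2-fold lower numbered 134 with an offset of 0, 5 with an offset of 50, 4 on deposited signals and 10 with detection on both arrays. At 1.5-fold the higher genes numbered 614, 157 and 43 with an offset of 0, an offset of 50 and deposited signals, and the lower genes 684, 151 and 70, and 246 with detection on both arrays. Genes 2-fold apart between WT-SC and WT-ctr numbered 136 with median scaling, 292 with an offset of 0, 22 with an offset of 50 and 18 on deposited signals. With no filter on dim probes, r of the pairs' differences was 0.35 and r of a gene's brightest probes was 0.26. Of 430 recomputed medians of 43 lists, 423 moved by less than the spread used (0.10). The others were -0.14 for metallothioneins on deposited signals, 0.017 for epithelial markers with detection on both arrays, -0.14 for histones and -0.11 for fibroblast and endothelial markers with the mean of probes, and, with no filter, 0.035 for neuroendocrine, 0.012 for immune and -0.061 for fibroblast and endothelial markers. Of 2013 recomputed values of 204 named genes, 1929 moved by less than 0.33. Between settings 6 of the 204 genes changed sign. Of these, F3, at 0.14 with detection on both arrays, was at least 2-fold apart, and the other 5, CD44, CPT1A, HSPA1B, ACADVL and DGAT1, lay under 1.5-fold. ZNF121 ranged from -4.03 to -1.74, HSPA6 from 0.93 to 1.32, CD36 from -1.52 to -1.11 and TAOK1 from -0.95 to -0.89. No paired analysis was possible because each group had 1 array and the labels give no replicate numbers. The cause of other changes was not tested.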

Other observations

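Of 47323 probes, 60 were undetected on CSC-PNA with a detection p under 0.01 on CSC-SC and CSC-ctr. These include the 7 probes undetected on both PNAs-A15 arrays. By the same limits, 143 were detected on CSC-PNA alone among the CSC-rich arrays. No such count was made for the parental arrays. Of the 60 and the 143 probes, 39 and 93 had a gene name. At the level of single probes, 74 of 21311 kept probes were at least 2-fold higher on CSC-PNA and 67 lower, against 216 and 43 of 21681 on WT-SC.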
